A study of Mus musculus with 4 samples.

Results

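TEC transcript models carry the Ensembl biotype for entries that still await experimental verification: stretches of the mouse genome where cDNA or EST clusters point to a transcript whose structure and coding status have not been settled. The members described here were the rows whose Ensembl biotype was TEC and that lay on chromosomes 1 to 19, which gave 1554 models among the 21462 features of the deposited expression table. A further 3 TEC models lay on the X chromosome and were not members. The RNA came from lung smooth muscle cells of C57BL/6 mice, 2 control libraries and 2 Tet3 mutant libraries. In the study's methods the mutant mice carried floxed Tet3 alleles (Tet3 fl/fl), a tamoxifen-inducible Cre under the smooth muscle actin promoter (α-SMA ERT2Cre) and a tdTomato reporter, controls lacked the floxed alleles, and tdTomato-positive cells were sorted from lung after blood cells had been depleted. Deletion was therefore limited to cells that drove this promoter when tamoxifen was given. The labels give no age, sex or batch; the study describes the libraries of a group as coming from independent animals.

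Cells transcribe far more of the genome than the known genes, and much of the surplus lies within genes. A transcript seen inside an intron can be an independent short RNA started within the gene, a piece of the host gene's own unspliced precursor, or an excised intron that has not yet been degraded. A transcript just past the end of a gene can be a longer form of that gene that uses a later cleavage site, and the cleavage machinery recognises the hexamer AATAAA or its common variant ATTAAA shortly upstream of the cut. TET3 oxidises methylated cytosine to hydroxymethylcytosine, a mark that is abundant in the bodies of transcribed genes. Total RNA depleted of ribosomal RNA, as sequenced here, keeps unspliced and non-polyadenylated molecules as well as mature messages.

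Sequence at the annotated end of a model shows whether either hexamer stands there, but not whether a transcript is cleaved there. The last 50 bases of 8 models that the results turn on are printed 5′ to 3′ from the GENCODE M21 transcripts of build GRCm38. They are given on the strand of the model, with AATAAA or ATTAAA in capitals. Gm43085 (chr5:90806343-90806392, plus strand), Gm44250 (chr6:5216258-5216307, minus strand) and Gm43820 (chr3:37647903-37647952, plus strand) lay shortly downstream of Cxcl15, Pon3 and Spry1. The model 5430434F05Rik (chr6:83417440-83417489, minus strand) lay within Tet3, Gm49839 (chr17:28457484-28457533, minus strand) within Fkbp5 and Gm37674 (chr1:194671457-194671506, plus strand) within Plxna2. Gm37352 (chr8:84203000-84203049, plus strand) and Gm43923 (chr6:93197802-93197851, plus strand) lay outside protein-coding genes.
Gm43085: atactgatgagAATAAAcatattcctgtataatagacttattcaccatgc
Gm44250: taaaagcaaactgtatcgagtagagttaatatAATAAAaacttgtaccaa
Gm43820: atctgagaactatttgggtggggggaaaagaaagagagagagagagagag
5430434F05Rik: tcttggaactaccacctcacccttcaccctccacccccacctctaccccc
Gm49839: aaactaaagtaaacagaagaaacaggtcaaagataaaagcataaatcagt
Gm37674: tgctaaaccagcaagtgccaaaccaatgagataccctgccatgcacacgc
Gm37352: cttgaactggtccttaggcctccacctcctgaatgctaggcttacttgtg
Gm43923: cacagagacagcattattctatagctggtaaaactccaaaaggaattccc
The hexamer stood near the end of Gm43085 and Gm44250 and was absent from this window in the other 6. Gm43820 ended in a run of alternating guanine and adenine, and the model within Tet3 ended in a cytosine-rich stretch.

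The values used throughout are the deposited ones: reads counted per gene, scaled between libraries and rounded by the authors, so they are relative levels and not raw counts. They summed to between 6805272 and 7164573 per library. Tet3 itself read 1847 and 1926 in control and 1534 and 1444 in mutant, which did not overlap (log2 fold change -0.34 ± 0.10 SE, limma unadjusted p = 0.0184, adjusted p = 0.681); the gene value sums all exons, whether or not Cre removed them. All 10 smooth muscle markers were detected in every library, with summed values of 7117 and 8399 in control and 9859 and 9297 in mutant. All 10 had log2 fold changes above 0, and 4 had a limma unadjusted p under 0.05. Markers of other cells were present too, and none was at 0 in any library. The 8 T cell markers summed to 228 to 877, the 8 endothelial markers to 13490 to 14944 and the 7 alveolar type 2 markers to 10000 to 20836. The 6 fibroblast markers summed to 15746 and 13221 in control and 16552 and 14797 in mutant. All 8 T cell and all 8 endothelial markers had log2 fold changes above 0, and 0 had a limma unadjusted p under 0.05. Of the 6 fibroblast markers 5 were above 0, and 1 was at that p. The 10 macrophage markers summed to 6967 and 6461 in control and 7698 and 8529 in mutant, with 9 above 0 in log2 fold change and 4 at an unadjusted p under 0.05. The 7 ciliated cell markers summed to 2525 and 2804 in control and 4196 and 3200 in mutant, with 6 above 0 and 3 at an unadjusted p under 0.05. Of the 7 alveolar type 2 markers 0 were above 0, and 3 had an unadjusted p under 0.05. Over all features tested, 3.83% were higher and 2.85% lower in the mutant at that p. None of the markers passed the adjusted threshold, and the part of the marked cells in the TEC values was not tested. Control library 2 stood apart: Xist read 2 there and 5214 to 6781 in the others, and Ddx3y read 774 there and 0 in the others. In Xist and Ddx3y the control libraries were thus unlike each other, while the mutant libraries were alike. The groups were not balanced in this respect, and its part in the TEC values was not tested. The T cell marker sum of control library 2, 228, was also the lowest, against 790 to 877. Mutant library 2 stood apart in the TEC models, as described next.

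The TEC models were short, nearly always annotated with a single exon, and weakly expressed. Length and exon number belong to the annotation and were not measured in these libraries. Of the 1554 models, 1551 had a single exon, and their median length was 2215.5 bases, from 60 to 30942 bases. The GENCODE M21 annotation holds 3204 TEC genes on these chromosomes; all 1554 members were found there by identifier, 1550 at the same coordinates, and 8 carried another gene type in it. The median of the mean value over the 4 libraries was 15.25, with 265 models at 50 or more, 70 at 100 or more and 18 at 200 or more, and 1428 models were above 0 in all 4 libraries. The 10 highest models held 9.45% of the summed TEC value, so no small set dominated it. The models were spread very unevenly over the genome, with 273 on chromosome 5, 233 on chromosome 1 and 159 on chromosome 3 but 8 on chromosome 11, 9 on chromosome 19 and 11 on chromosome 4. Against the protein-coding genes of the same chromosome in the table, that was 28.6 models per 100 genes on chromosome 5 and 0.627 per 100 on chromosome 11. The counts were not set against the annotated TEC genes of each chromosome. They therefore do not show where such RNA was more often transcribed.

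Most TEC models lay within a protein-coding gene and on its strand. By whole-span containment in the protein-coding genes of the table, 1091 models (70.2%) were inside a gene on the same strand, 84 were inside a gene on the opposite strand, 9 were inside genes on both strands, 80 overlapped a gene in part and 290 lay outside. Of the 1091, 1043 touched no annotated exon of a same-strand gene and were thus intronic. Of the 290 outside, 74 began within 5 kb of the end of a same-strand gene. Counting any overlap as inside moved the same-strand share only to 70.3%.

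The models were poorer in GC and CpG than genes, and fewer ended near a cleavage hexamer. Their median GC content was 42.3%, against 50.0% for protein-coding genes, and their median ratio of observed to expected CpG was 0.195 against 0.389. The cleavage hexamer AATAAA or ATTAAA, searched on the transcript strand only, was found in the last 50 bases of 437 models (28.1%), compared with 73.6% of protein-coding genes, 50.8% of lincRNAs and 61.3% of all features. In a 50-base window at the middle of the transcript the share was 5.86% for TEC models and 2.89% for protein-coding genes. The share in the end window differed with position: 19.1% of the models inside a gene on the same strand had a hexamer there, 47.6% of those on the opposite strand, 47.2% of those outside genes and 51.4% of those within 5 kb downstream of a gene. Sense intronic models, a neighbouring biotype of transcripts inside introns, gave 27.0%. Of the members, 30 had an entry in the RefSeq promoter table for GRCm38, too few to describe their promoters.

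Levels of intronic models tracked those of their host genes. Per kilobase of exon, the 1030 same-strand models with 1 host and no exon overlap had a median value of 9.90, whereas their 652 hosts weighted by model had a median of 83.9. The median model was at 13.2% of its host per kilobase, with an interquartile range of -3.66 to -2.21 on the log2 scale, and 8 models were above their host. Across these models the log2 level per kilobase correlated with that of the host (Pearson 0.68, Spearman 0.66); the points share hosts and libraries. The 31 models on the opposite strand of 1 host were lower, with a median of 3.26 per kilobase and a Pearson correlation of -0.30. At a mean of at least 10, the Pearson correlation was 0.55 in 9 of these and 0.53 in 722 same-strand models. With only 9 models on the opposite strand, these values cannot show whether the 2 strands differ in this respect. Reads of unspliced host RNA that fall in the span of a same-strand model are counted for the model, so independent transcripts and host precursor cannot be told apart in these values.

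As a group, TEC models took a smaller share of the RNA in the Tet3 mutant libraries, but most of the difference rested on 1 library. The TEC share of the summed value of chromosomes 1 to 19 was 0.771% and 0.726% in control libraries 1 and 2 and 0.695% and 0.501% in mutant libraries 1 and 2. The groups did not overlap, and the second mutant library was far below the other 3. The group means were 0.748% ± 0.0323 in control and 0.598% ± 0.137 in mutant (SD, n = 2 each; exact permutation test, two-sided, p = 0.333, the smallest that 2 against 2 allows). Without mutant library 2 the difference shrank from -0.150 to -0.0531 percentage points. Models inside a same-strand gene made up most of the share, at 0.590% and 0.540% in control and 0.547% and 0.36% in mutant, where the groups overlapped (exact permutation test, p = 0.667). Models outside genes took 0.128% and 0.135% in control and 0.103% and 0.10% in mutant, without overlap (exact permutation test, p = 0.333). Without Gm44250 and Gm43085, the 2 highest models, a choice made after seeing the data, these shares were 0.101% and 0.0976% in control and 0.0897% and 0.0738% in mutant, with mutant library 2 the lowest. Fewer cells that hold such RNA and less of it per cell cannot be told apart in bulk libraries.

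Other noncoding classes did not all behave alike. Sense intronic models took 0.107% and 0.104% in control and 0.0941% and 0.0746% in mutant, again with mutant library 2 lowest. Antisense models took 0.279% and 0.294% in control and 0.270% and 0.249% in mutant, without overlap (exact permutation test, p = 0.333). LincRNAs took 0.422% and 0.444% in control and 0.459% and 0.384% in mutant, which overlapped (exact permutation test, p = 1.0). Protein-coding genes took between 97.7% and 98.1% in every library.

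No TEC model passed the adjusted threshold of 0.05, and the tested models were shifted downward as a body. The limma test, run on log2(value + 1) over the 16659 features with a mean of at least 10, took in 972 TEC models; the remaining 582 were below that mean. The smallest adjusted p among them was 0.681, and 0.0% of all features tested passed. Counted at an unadjusted p under 0.05, 40 models were lower in the Tet3 mutant and 1 was higher, next to 2.85% of all features lower and 3.83% higher. The median log2 fold change was -0.34 with 187 of 972 models above 0, while the median over all features was -0.01. Values of the 2 groups did not overlap in 280 models with the mutant lower and in 20 with the mutant higher, against 19.5% and 19.6% of all features.

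The shift did not depend on the mean filter. Of the tested models, 72 had a mutant mean under 10 and so passed on their control values, and 22 the reverse. In the 878 with both group means at 10 or more the median was -0.32. With the filter lowered to a mean of 1, which takes in all 1554 members, the median was -0.29 and 422 were above 0. Medians were -0.28, -0.34 and -0.38 for models with means of 10 to 20, 20 to 50 and over 50, and the plot of change against level shows the same downward offset along the whole range. Protein-coding genes with means under 60 had a median of 0.18.

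**Figure D1:**
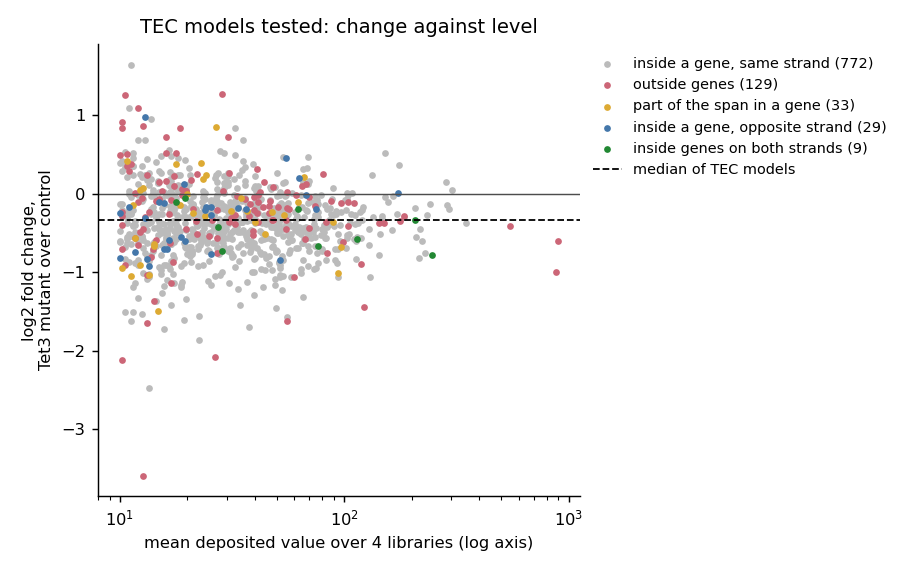
Each point is 1 of the 972 tested TEC models, with the mean deposited value over 4 libraries on a log x axis and the log2 fold change of Tet3 mutant over control on the y axis, coloured by position relative to protein-coding genes. The dashed line is the TEC median of -0.34, and 187 points lie above 0.

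Much of the offset rested on mutant library 2. Compared with the mean log2 level of the other 3 libraries, the median TEC model was 0.35 higher in control library 1, 0.15 higher in control library 2, 0.12 higher in mutant library 1 and 0.57 lower in mutant library 2. That library held the lowest value in 604 of the 972 models (62.1%), compared with 16.8% of protein-coding genes. Without it the median log2 fold change was -0.09, 413 models were above 0 and 7 models were lower at an unadjusted p under 0.05. Without mutant library 1 the median was -0.60, and without control library 1 or 2 it was -0.25 or -0.42. The mutants thus did not resemble each other in this respect, and the cause of the low level of TEC models in library 2 was not tested.

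The departure of mutant library 2 differed with the position of the models. For models inside a same-strand gene the deviation of that library was -0.62 and it held the lowest value in 526 of 772, and sense intronic models gave -0.55. Models inside a gene on the opposite strand gave -0.16, those within 5 kb downstream of a gene -0.12 and those farther outside -0.43. For lincRNAs the deviation was -0.15, for antisense models -0.11 and for protein-coding genes 0.03. These differences between classes are descriptions and were not tested.

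**Figure D2:**
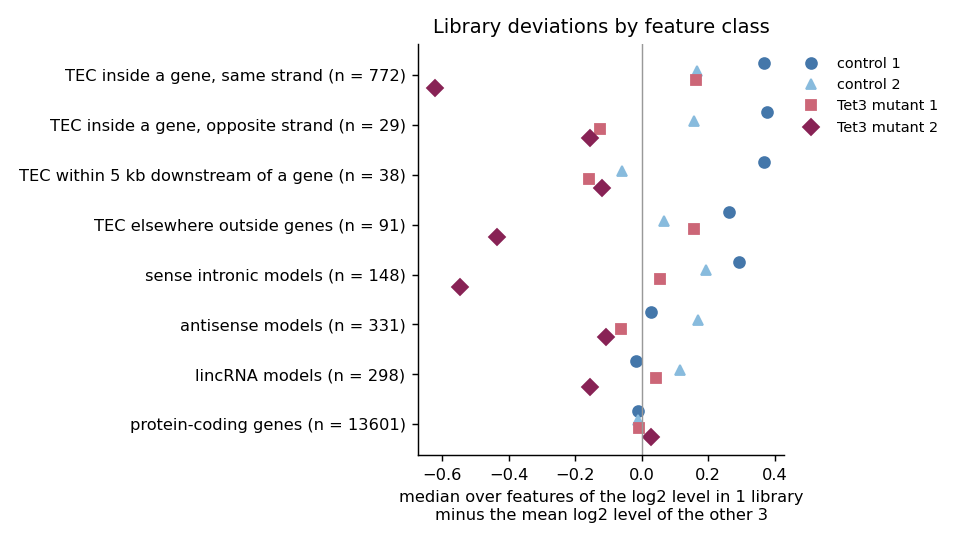
For each feature class the 4 symbols give the median over tested features of the log2 level in 1 library minus the mean log2 level of the other 3, with n the number of features. Mutant library 2 lies farthest left, at -0.62, for TEC models inside a gene on the same strand, and all 4 libraries lie near 0 for protein-coding genes.

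By position, median changes on the log2 scale were below 0 in each class, and some rested on 1 library. The medians were -0.37 over the 772 models inside a same-strand gene, -0.21 over the 29 on the opposite strand, -0.16 over the 38 within 5 kb downstream and -0.20 over the 91 farther outside. Without mutant library 2 these became -0.07, -0.26, -0.22 and -0.02. The 9 models inside genes on both strands had -0.42, and -0.21 without that library, and the 33 that overlapped a gene in part had -0.23 both ways. For the models within 5 kb downstream the median was -0.0035 without control library 1 and -0.38 without control library 2. Sense intronic models went from -0.39 to -0.14 and lincRNAs from -0.08 to -0.03. The position along the host made little difference, with medians of -0.38, -0.37 and -0.34 for models in the first, the middle and the last of 3 equal parts of the gene. Over 5 bins of GC content, the median change was -0.26 in the TEC models poorest in GC and -0.38 in the richest, and without control library 1 it was -0.05 and -0.54. From the poorest to the richest bin the deviation from the other 3 libraries went from 0.47 to 0.10 in control library 1 and from -0.11 to 0.49 in control library 2. In mutant library 2 it lay between -0.52 and -0.61 in all 5 bins. The control libraries moved in the same directions in protein-coding genes, by less. There the deviation went from 0.11 to -0.05 in control library 1 and from -0.16 to 0.05 in control library 2. The part of GC content in the changes was not tested.

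Host genes did not share the offset. For 761 tested models inside 505 same-strand hosts, the median log2 fold change was -0.37 for the model and -0.03 for the host. The log2 ratio of model to host had a median of -4.50 and -4.54 in control libraries 1 and 2 and of -4.62 and -5.19 in mutant libraries 1 and 2. It was lowest in mutant library 2 for 559 of the 761 models. The median change of the ratio was -0.33 with 116 models above 0, and without mutant library 2 it was -0.06.

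By limma on the ratios of all 1231 noncoding models inside 1 protein-coding gene, no TEC model passed the adjusted threshold, as was true of 0.0% of all pairs, and the smallest adjusted p was 0.0878. Before adjustment, at p under 0.05, the ratio was lower in 30 of the 761 TEC models and higher in none, against 3.74% and 0.406% of all pairs. The ratio did not overlap between groups in 253 with the mutant lower and in 10 with the mutant higher, against 32.2% and 2.84% of all pairs, most of which were TEC pairs. Changes of model and host went together to some degree across models (Pearson 0.50, Spearman 0.47, n = 761), with the 4 libraries shared by both. Both were below 0 in 402 pairs and both above 0 in 103, whereas in 227 pairs the host was above 0 and the model below. For the 28 models on the opposite strand the median change of the ratio was -0.19.

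**Figure D3:**
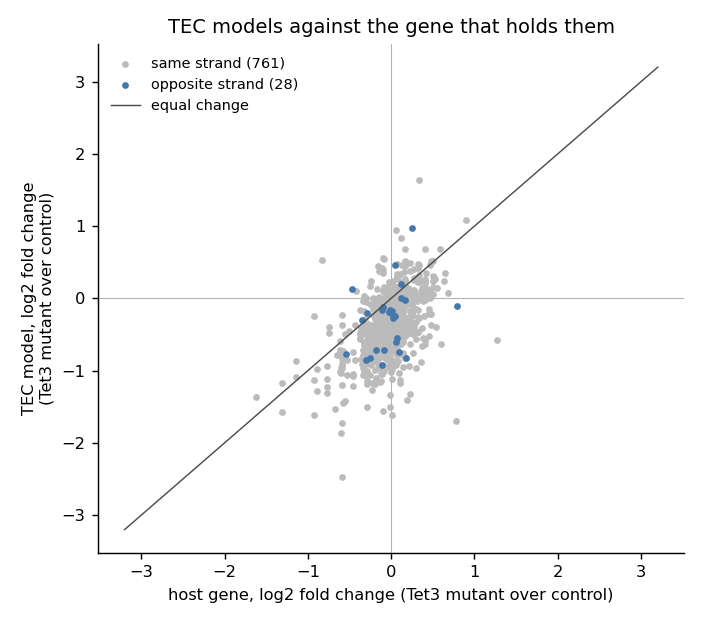
Each point is a TEC model plotted by the log2 fold change of its host gene (x axis) and its own (y axis), both Tet3 mutant over control, for 761 same-strand and 28 opposite-strand pairs. Most points lie below the line of equal change, and hosts centre near 0 with a median of -0.03 for the same-strand pairs.

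The Tet3 gene itself holds a TEC model. The transcript 5430434F05Rik (chr6:83417440-83420992, minus strand, 3553 bases) lies on the same strand as Tet3, 38092 bases from its start, inside an intron of 31972 bases. It read 85 and 109 in control and 57 and 42 in mutant. Both mutants were below both controls (log2 fold change -0.96 ± 0.30 SE, limma unadjusted p = 0.0230, adjusted p = 0.681), and the value ranged from -1.18 to -0.75 when each library was left out in turn. Its ratio to Tet3 had a log2 change of -0.62 (limma unadjusted p = 0.158) with an SE of 0.42, which did not pass the test. Reads of the Tet3 precursor that runs through the model cannot be told apart from reads of the model itself.

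**Figure D4:**
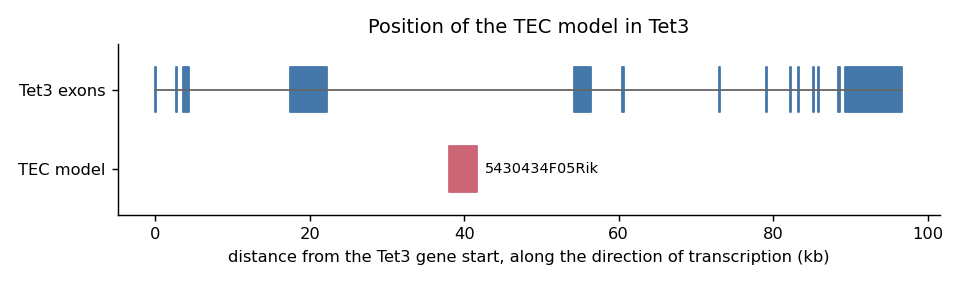
Exons of Tet3, merged over transcripts, and the TEC model 5430434F05Rik are drawn to scale by distance in kb from the gene start, along the direction of transcription. The model starts 38092 bases from the gene start and touches no exon.

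The 2 most abundant TEC models stood just past the ends of genes. Gm44250 (chr6:5216258-5220486, minus strand) begins 366 bases downstream of Pon3, which encodes a lactonase of the paraoxonase family. It read 885 and 1270 in control and 555 and 877 in mutant, and Pon3 read 585 and 1041 in control and 338 and 582 in mutant. Both were lowest in mutant library 1 and highest in control library 2, and control library 1 and mutant library 2 were nearly equal. The log2 fold changes were -0.60 ± 0.28 for the model (limma unadjusted p = 0.0845) and -0.81 ± 0.37 for Pon3. That of the model was -0.27 without mutant library 1 and -0.34 without control library 2. The model had 212.0 per kilobase, above the 188.0 of the annotated Pon3 exons.

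Gm43085 (chr5:90803261-90806392, plus strand) begins 194 bases downstream of Cxcl15, which encodes lungkine, a chemokine of lung epithelium. It read 957 and 1317 in control and 363 and 865 in mutant. Cxcl15 read 1472 and 1897 in control and 1010 and 1366 in mutant. Model and gene kept the same order of libraries, with control library 2 on top and mutant library 1 at the bottom, and neither overlapped between groups. The log2 fold change of the model was -1.0 ± 0.43 (limma unadjusted p = 0.0666), and it was -0.38 without mutant library 1 and -1.63 without mutant library 2. The 7 alveolar type 2 markers had the same order, with sums of 14063 and 20836 in control and 10000 and 12722 in mutant, and all 7 had log2 fold changes below 0 (median -0.53, none passing the adjusted threshold). Their part in the values of Gm43085 and Gm44250 was not tested.

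Gm43820 (chr3:37644607-37647952, plus strand), named here after its values were seen, begins 9 bases downstream of Spry1, an inhibitor of receptor tyrosine kinase signalling. It read 98 and 112 in control and 58 and 66 in mutant, and Spry1 read 951 and 1105 in control and 832 and 882 in mutant. The groups did not overlap in either, and the log2 fold changes were -0.75 (limma unadjusted p = 0.0261) for the model and -0.26 for Spry1. Over all 38 tested models within 5 kb downstream of a same-strand gene, the changes of model and gene went together (Pearson 0.78, Spearman 0.73, n = 38, same sign in 27), with the 4 libraries shared by both. The median distance was 1392.5 bases, and the median model was at 13.3% of its gene per kilobase.

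**Figure D5:**
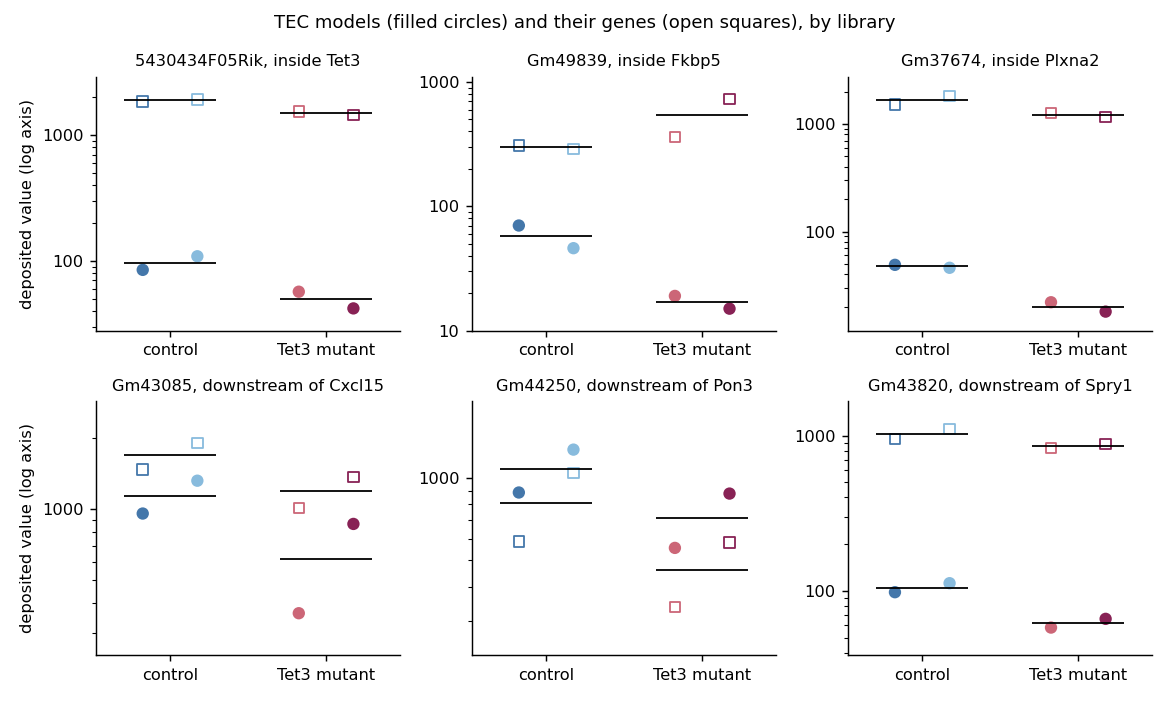
Deposited values on log y axes are shown for 6 TEC models (filled circles) and for the gene that holds them or lies just upstream (open squares), with 2 control libraries (blue) and 2 Tet3 mutant libraries (red) per panel and black lines at group means. Gm49839 and Fkbp5 move apart, with the model at 19 and 15 and the gene at 362 and 729 in the mutants.

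Among the models named for the highest means, those inside genes showed no separation of the groups. Gm37352 (chr8:84200869-84203049, plus strand), outside genes, read 525 and 724 in control and 555 and 384 in mutant. Gm45223, inside Picalm, a clathrin assembly gene, read 357 and 411 in control and 414 and 210 in mutant. E230020D15Rik, inside Efnb2, which encodes an ephrin ligand, read 256 and 364 in control and 344 and 205 in mutant. Mutant library 2 was the lowest in all 3 of these, and the groups overlapped in each. Gm47087 in Maml2, Gm43281 in Limch1 and Gm43022 in C1qtnf7 had log2 fold changes between -0.15 and 0.15, with control library 2 the lowest. Some models inside genes with somewhat lower means did separate, and they were picked after their values were seen. Gm38118, inside genes on both strands, read 390 and 237 in control and 169 and 184 in mutant. C130089K02Rik in Maml3 read 215 and 366 in control and 176 and 156 in mutant. Per kilobase of exon Gm43085 led with 279.5, followed by Gm37352 with 250.8, Gm44250 with 212.0 and Gm42778 in Ttc28 with 142.4.

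The models with the smallest p on the lower side, at a mean of at least 30 and without overlap, mostly lay in same-strand genes. So did 772 of the 972 tested models. Gm49839 (chr17:28457484-28461095, minus strand) lies inside Fkbp5, which encodes a co-chaperone of the glucocorticoid receptor that glucocorticoids induce. It read 70 and 46 in control and 19 and 15 in mutant, while Fkbp5 read 309 and 289 in control and 362 and 729 in mutant. Model and host went in opposite directions, with mutant library 2 lowest for the model and highest for the host. The log2 fold change of the model was -1.69 ± 0.39 (limma unadjusted p = 0.00692) and that of the ratio -2.47 ± 0.46 (limma adjusted p = 0.0878 over all pairs), the lowest ratio change of the TEC models tested.

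Gm43923 (chr6:93194941-93197851, plus strand), outside genes, read 146 and 163 in control and 88 and 77 in mutant. Its groups were tight and well apart (log2 fold change -0.90 ± 0.21, limma unadjusted p = 0.00784), and the value stayed between -0.99 and -0.80 when any 1 library was left out. Plxna2, a receptor for semaphorins, held 3 models that were lower at a limma unadjusted p under 0.05. They are shown because they were low, and Gm37783 was named after its values were seen. Gm37674 read 49 and 46 in control and 22 and 18 in mutant, Gm38036 read 61 and 73 against 37 and 26, and Gm37783 read 56 and 90 against 38 and 30, with log2 fold changes of -1.21, -1.08 and -1.05. Plxna2 read 1522 and 1816 in control and 1259 and 1166 in mutant, a log2 fold change of -0.46. Gene and models were thus all lower in both mutants, the models by more, but the ratio to the host did not pass even unadjusted for Gm37674 (limma unadjusted p = 0.118) or Gm38036 (limma unadjusted p = 0.168).

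Gm45828 in Slc6a6, the taurine transporter, read 61 and 66 in control and 33 and 31 in mutant. Gm44416 in Antxr1, an anthrax toxin receptor that binds collagen, read 98 and 99 in control and 61 and 42 in mutant. Gm43609 in Abcd3, a peroxisomal transporter, read 51 and 96 in control and 31 and 20 in mutant. Log2 fold changes were -0.97, -0.95 and -1.45, and the hosts had -0.16, -0.03 and -0.58. Gm37161 in Nckap5 read 75 and 98 in control and 45 and 39 in mutant, next to a host at 1712 and 2613 against 1382 and 1378.

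Few models were higher in the mutants. The only one at an unadjusted p under 0.05 was Gm28719 (chr6:86498781-86500537, plus strand), outside genes, which read 16 and 16 in control and 50 and 32 in mutant (log2 fold change 1.27 ± 0.40, limma unadjusted p = 0.0235, adjusted p = 0.681). With a mean of at least 30 and no overlap the rule found 4: Gm43196 outside genes (27 and 19 against 36 and 40), Gm48804 in Srgap1 (31 and 23 against 40 and 36), Gm43667 opposite to Fxr1, an RNA-binding relative of the fragile X protein (43 and 49 against 55 and 73), and Gm45540 in Hpgd, which degrades prostaglandins (151 and 153 against 230 and 167). Their log2 fold changes were 0.72, 0.49, 0.46 and 0.36, and none reached an unadjusted p of 0.05. At the other extreme, Gm49167 (chr10:94685705-94688619, plus strand) had the smallest p of all TEC models. It read 33 and 16 in control and 1 and 1 in mutant (limma unadjusted p = 0.00186, adjusted p = 0.681), so it passed the mean filter through its control values. Both Gm28719 and Gm49167 were named after their values were seen.

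Other low-ratio models were weak and sat in varied hosts. Gm43072 in Elovl6, a fatty acid elongase, read 19 and 16 in control and 8 and 5 in mutant. Gm44716 in Col4a1, a basement membrane collagen, read 14 and 21 against 4 and 6. Gm43389 in Klhl7 read 28 and 21 against 14 and 5. The groups did not overlap in any of these, and the hosts had log2 fold changes of 0.23, 0.01 and 0.18. Gm43272 in Cds1, an enzyme of phospholipid synthesis, read 6 and 43 in control and 4 and 1 in mutant, so that control library 2 carried it. On the higher side the ratios of Gm42440 in Auts2, 2210406H18Rik opposite to Mettl9, Gm48585 in Rps6ka5, Gm36962 in Lama2 and Gm49524 in Zfpm2 had unadjusted p from 0.0783 to 0.202, and Gm49524 was listed at 0 in control library 2.

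Several large genes held many models, and their models differed from gene to gene. Maml3, a coactivator of Notch signalling, held 9 tested models that were all below 0, from -1.19 to -0.23 with a median log2 fold change of -0.83. Their summed value was 481 and 827 in control and 400 and 331 in mutant, and Maml3 read 1063 and 1357 in control and 776 and 825 in mutant. Neither overlapped between groups, and control library 2 was the highest in both. Ldb2, a cofactor of LIM-domain transcription factors, held 8 models, all below 0 with a median of -0.49, and their sum was 507 and 434 in control and 424 and 245 in mutant. Ldb2 itself did not go with them, at 540 and 352 in control and 486 and 476 in mutant.

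Apbb2 held 7 models with a median of -0.67, and their sum of 192 and 302 in control and 182 and 140 in mutant left the groups apart. In Tcf12, a basic helix-loop-helix factor, 7 models summed to 345 and 255 in control and 288 and 183 in mutant, which overlapped, with a median of -0.42 and a host change of 0.00. Auts2, with 21 models in the table, held 8 tested ones of which 4 were above 0. They summed to 197 and 161 in control and 186 and 142 in mutant, with a median of -0.04. Models of 1 gene may read the same precursor and are not independent.

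Genes of 5 hand-made functional lists that bear on smooth muscle and on the study's themes held few tested models, and they are described by counts only. The list of chromatin, transcription and RNA genes held 16 tested models with a median log2 fold change of -0.25, 4 of them above 0, and 1, the model in Tet3, at an unadjusted p under 0.05. The median was 0.10 without control library 1, with 10 above 0, and -0.51 without control library 2. It was -0.46 without mutant library 1 and -0.0079 without mutant library 2, with 8 above 0. Gm37589 in Mbnl1, a splicing regulator, read 327 and 176 in control and 307 and 128 in mutant, and Gm37488 in the same gene read 138 and 120 against 125 and 59. Gm37186 in Crebbp, a histone acetyltransferase, read 104 and 77 against 101 and 72, and Gm48314 in Kmt2a, a histone methyltransferase, read 60 and 50 against 47 and 35. The groups overlapped for Gm37589, Gm37488 and Gm37186 and were apart for Gm48314. Models in Chd9, Mef2a and Meis1 had log2 fold changes between -0.22 and 0.00, and 4833412C15Rik in Rbfox2, a splicing regulator, had -0.81.

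In the list of matrix, adhesion and growth factor genes 12 models had a median of -0.32, with 3 above 0 and 1, Gm44716 in Col4a1, at an unadjusted p under 0.05. The median turned to 0.045 without control library 1, with 7 above 0, and was -0.90 without control library 2. Gm43921 in Col1a2, a chain of type I collagen, read 183 and 76 in control and 205 and 141 in mutant. Gm45257 and Gm45258 in Cdh11, a mesenchymal cadherin, read 170 and 65 against 66 and 62, and 136 and 56 against 84 and 70. The control libraries differed from each other by more than the groups did in all 3. The 3 models in Tgfbr3, a TGF-beta coreceptor, had log2 fold changes of -0.31, -0.34 and -0.80, and Gm37701 in Itga8, an integrin of smooth muscle, had -0.74.

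In the list of ion channels and contractile signalling 12 models had a median of -0.14, with 5 above 0 and none at an unadjusted p under 0.05. The median turned to 0.11 without control library 1 and to 0.15 without mutant library 2, with 8 above 0, and was -0.50 without control library 2 and -0.55 without mutant library 1. The calcium channel subunit gene Cacnb2 held 5 of the 10 named, of which 2900092N22Rik read 116 and 41 in control and 88 and 52 in mutant. Among the 10 named, the largest difference was in Gm43359 within Atp2a2, the calcium pump of the sarcoplasmic reticulum, which read 84 and 112 in control and 75 and 47 in mutant. Genes of smooth muscle contraction and the cytoskeleton held 2 tested models, Gm48798 in Utrn (5 and 14 against 16 and 8) and Gm38157 in Dst (12 and 9 against 23 and 9). The immune and endosomal sensing genes held 1, A130071D04Rik in Ptprc, the gene of the leukocyte antigen CD45, which read 154 and 82 in control and 184 and 49 in mutant. Ptprc read 2136 and 1364 in control and 2674 and 1885 in mutant, in the same order of libraries except that mutant library 2 was above control library 2.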

How the data were processed

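RNA of sorted lung smooth muscle cells was measured in 4 libraries, grouped as control or Tet3 mutant by the labels. The deposited values are a score: counts per gene that the authors scaled with DESeq2 and rounded. The submitters' processing notes name FastQC, Trimmomatic 0.36, STAR 2.6.0c and featureCounts (Subread 1.6.0) on GRCm38; reads mapping to several places or genes were excluded by the study's methods, and use of strand in counting is not given in the sources used here, so overlapping features on opposite strands are uncertain. With no raw counts, no counting interval is given. The study's methods report an average number of reads per library, but the depth of each library is not known. The totals given here are sums of scaled values and do not measure depth. Features with a mean of at least 10 were tested with limma 3.58.1 (R 4.3.3) on log2(value + 1) with a mean-variance trend, adjusted by Benjamini-Hochberg over all 16659, and fold changes of low features are understated on this scale. Ratios to the host were tested likewise. The procedure was checked on simulated data with changes planted only in features with a mean of at least 50. That check did not measure how often changes in weaker models are found. Shares were compared by exact permutation test. Models were related to genes by the deposited coordinates, and exons and sequences came from GENCODE M21. Named were the 8 models of highest mean, up to 8 per direction of smallest p with a mean of at least 30 and no overlap between groups, up to 10 by mean per host list, 5 per direction of smallest ratio p, and the 5 highest per kilobase. The level of 1 of these last 5 is not reported here. Members and lists were chosen with earlier results of these data known. The deposited table also holds gene annotation columns, which supplied the positions. Alternatives were another pseudocount, filter, scaling or trend, a replicate block and leaving out each library.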

Additional observations from a re-analysis of the deposited data

How the results depend on the processing

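Under every setting 0 TEC models passed the adjusted threshold (limma). The median log2 fold change stayed below 0 under all settings, from -0.60 without Tet3 mutant replicate 1 to -0.086 without Tet3 mutant replicate 2. The count at an unadjusted p under 0.05 was 41, and became 62 with a mean of at least 1, 13 with a mean of at least 50 and 124 with no trend; leaving out each library in turn it ran from 8 to 69, lowest without Tet3 mutant replicate 2 and highest without control replicate 1. Fewer features were tested at the higher minimum and more at the lower one, and the cause of the other moves was not tested. Ratios to the host passed in 0 models, in 1 with a pseudocount of 8, and in 0 to 17 leaving out each library, with 17 without Tet3 mutant replicate 1, 2 without Tet3 mutant replicate 2 and 2 without control replicate 2. In these fits 1 group holds 1 library, which is assumed to vary like the others. The share difference of -0.150 percentage points kept its direction throughout, and Tet3 kept its own, from -0.39 to -0.29. Scaling every library to the same total moved the median of all features from -0.01 to 0.04 and that of TEC models to -0.29.

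Replicate numbers are shared by both groups, but with 2 pairs the deviations of same-numbered libraries correlated at 0.13 over all features and 0.02 over TEC models, so the numbers were not taken to pair the samples. With the replicate block 39 TEC models had an unadjusted p under 0.05, against 41, and the median stayed at -0.34.

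Of 63 named models 32 kept their direction without each library in turn. The other 31, none past a threshold, changed sign, with these ranges of log2 fold change. Values ran for 2610001A08Rik from -0.48 to 0.31, 2900092N22Rik from -0.77 to 0.71, A130071D04Rik from -1.18 to 0.71, E230020D15Rik from -0.57 to 0.17, Gm10400 from -1.01 to 0.50, Gm36970 from -1.09 to 0.84, Gm37006 from -0.69 to 0.95 and Gm37186 from -0.31 to 0.17, and further for Gm37437 from -0.20 to 0.65, Gm37524 from -0.50 to 0.13, Gm37589 from -0.90 to 0.35, Gm37818 from -0.33 to 0.33, Gm37891 from -0.53 to 0.60, Gm38105 from -0.58 to 0.71, Gm38157 from -0.19 to 1.07 and Gm38211 from -0.26 to 0.74. They ran for Gm42778 from -0.24 to 0.21, Gm43022 from -0.45 to 0.74, Gm43281 from -0.63 to 0.33, Gm43360 from -0.79 to 0.071, Gm43423 from -0.74 to 0.061, Gm43921 from -0.11 to 1.15, Gm43958 from -0.24 to 0.69 and Gm44668 from -0.56 to 0.12, and further for Gm45223 from -0.86 to 0.11, Gm45258 from -0.82 to 0.45, Gm45640 from -0.077 to 0.082, Gm47087 from -0.28 to 0.37, Gm48585 from -0.18 to 1.27, Gm48798 from -0.28 to 1.04 and Gm49524 from -0.36 to 3.64. Of these, Gm42778 and 2900092N22Rik also changed sign with equal totals (0.035 and 0.018), and Gm37818 with a pseudocount of 8 (-0.0026) and with TMM factors (-0.00061).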
